A study of Mus musculus with 4 samples.

Results

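The expression of Cldn5, Cdh5, Pecam1, Jcad and Eng, 5 genes best known from the contacts between endothelial cells, was described in ILC3s, the group 3 innate lymphoid cells, taken from the small intestine of mice. These lymphocytes carry no rearranged antigen receptor and are a main source of IL-22 in the gut. The 5 genes were chosen by their values in the comparison of CD93-positive with CD93-negative ILC3s, so their differences in that pair are a description and carry no test. All 5 were found in both joint tables, which hold 12546 rows for the CD93 pair and 15242 rows for the KO and WT pair. The KO and WT pair was not used to choose them.

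RNA was sequenced from 4 libraries, 1 per group. The KO library came from ILC3s of mice labelled Il17d-KO, which lack the cytokine IL-17D, and the WT library from ILC3s of wild-type mice. The CD93-positive and CD93-negative libraries came from ILC3s of wild-type mice sorted by surface CD93, a glycoprotein that endothelial cells also carry. All 4 groups are labelled as steady state. Per the series' design text, ILC3s were sorted as living cells that were low for CD45, negative for CD3 and high for CD90.2, among other criteria. The labels of all 4 samples, KO and WT included, carry the same statement of 12 h in culture without stimulation, worded as a step before the sort by CD93. Whether it applies to the KO and WT cells cannot be told from it. The age and strain of the mice, how the KO allele was made and how many mice were pooled are not stated in the labels. With 1 library per group no difference has a replicate error, and intervals in parentheses are 95% counting intervals that cover counting error only. Expression is given as FPKM, fragments per kilobase of gene scaled to library size, which the authors deposited. The 2 tables were made with different gene sets, so levels are compared within a pair and not between pairs.

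Endothelial cells line the vessels and seal their borders with tight junctions and adherens junctions. Claudin-5, the product of Cldn5, forms tight junction strands, and VE-cadherin, the product of Cdh5, holds the adherens junctions together and is among the most specific genes of endothelium. PECAM-1 (CD31), the product of Pecam1, binds itself across the cell border and is also made by platelets, macrophages and many lymphocytes. JCAD, the product of Jcad, is a cytoplasmic protein located at VE-cadherin contacts. Endoglin (CD105), the product of Eng, is not a junction protein but a co-receptor that presents BMP9 and BMP10 to the receptor ALK1, and it is made by endothelium, stromal cells and activated macrophages.

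The scaling totals behind FPKM were between 11712846 and 11790580 in the CD93 pair and between 26087274 and 27002581 in the KO and WT pair. All 15 ILC3 marker genes were measured in each pair. Their summed FPKM was 9522 in the CD93-positive and 2790 in the CD93-negative library, of which Il22 alone was 7934 and 1655. Cd93 itself had an FPKM of 155 and 79.9 in these libraries and of 20.5 in KO and 43.5 in WT ILC3s. The ratio in the CD93 pair was 1.94 (1.88 to 2.00). In the CD93-negative library Cd93 lay above 96.4% of all rows, so this library was not without its RNA. Which cells of the library held that RNA was not tested. Il17d was not analysed here, so the KO label has no check from its own gene.

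In the CD93 pair the 5 genes differed among themselves. Jcad, Cldn5 and Eng were several fold higher in CD93-positive ILC3s, Pecam1 was high in both libraries and close between them, and Cdh5 was near the low end of both and lower in CD93-positive ILC3s. By the limit used throughout, a difference of at least 1 in log2(FPKM + 1), which is 2-fold, 3 of the 5 genes were higher and 0 were lower. A gene counts as measured in a pair if at least 1 of its libraries reached an FPKM of 1. Of the 10117 genes measured here, 2.49% passed the limit upwards in CD93-positive ILC3s and 1.94% passed it downwards. Nothing is read from the first count, since these values chose the genes.

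Cldn5 had an FPKM of 23.2 (21 to 25.7) in CD93-positive and 4.55 (3.59 to 5.70) in CD93-negative ILC3s. These values rest on 385 and 76 recovered reads and give a ratio of 5.10 (3.98 to 6.61). It lay above 81.7% of all rows in the CD93-positive library and above 44.7% in the CD93-negative one. Cldn5 (ENSMUSG00000041378.2) lies in mm10 at chromosome 16, 18776847 to 18778262, on the plus strand, and no annotated gene overlaps it. Of 8 claudin family genes analysed in this pair 4 were measured, and Cldn5 was the only one of these 4 past the limit. Cldn5 was chosen on this pair, and 2.49% of all measured genes passed the limit upwards and 1.94% downwards. Nothing is therefore read from this count about the family. Cldn4, a claudin of epithelial tight junctions, was lower in CD93-positive ILC3s, with 4.14 and 6.45. The claudin-domain gene Cldnd1, the highest of the family, had 42.6 and 33.0, and Cldn12 had 1.47 and 1.34.

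Eng had an FPKM of 11.6 (10.7 to 12.6) in CD93-positive and 3.65 (3.12 to 4.23) in CD93-negative ILC3s, from 551 and 174 reads. The ratio was 3.19 (2.68 to 3.80), and the difference of log2(FPKM + 1) was 1.44. With a pseudocount of 5 in place of 1 this difference was 0.94, below the limit, and a 3-fold limit on log2(FPKM + 1) also left Eng out. Eng (ENSMUSG00000026814.16) lies at chromosome 2, 32646595 to 32682669, on the plus strand. The gene Fpgs on the other strand shares 61 of its 4048 exon bases, and whether the counting used strand is not stated. Fpgs had an FPKM of 4.63 and 3.46.

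Cldn5 and Eng were higher in the same library, and their start sites differ in the letters that endothelial transcription factors of the ETS family are known to bind. RefSeq promoters (GRCm38.p6) matched these 2 of the 5 genes. The 250 bases before each start are printed 5′ to 3′ on the gene's strand, with each GGAA, the core of ETS sites, or its complement TTCC in capitals. The windows are chr16:18776597-18776846 (plus strand) and chr2:32646345-32646594 (plus strand).
Cldn5: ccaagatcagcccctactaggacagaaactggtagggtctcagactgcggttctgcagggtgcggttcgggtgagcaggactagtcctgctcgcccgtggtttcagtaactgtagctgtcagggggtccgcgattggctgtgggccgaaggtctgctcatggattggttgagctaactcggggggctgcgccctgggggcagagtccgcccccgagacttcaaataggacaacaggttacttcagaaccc
Eng: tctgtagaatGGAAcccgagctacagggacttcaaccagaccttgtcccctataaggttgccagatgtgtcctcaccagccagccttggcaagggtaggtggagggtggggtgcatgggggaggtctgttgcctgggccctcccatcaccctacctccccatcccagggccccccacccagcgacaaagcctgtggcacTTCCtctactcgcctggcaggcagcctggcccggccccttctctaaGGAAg
The Cldn5 window held 0 matches to GGAA on either strand and the Eng window 3. Among 27025 RefSeq promoters of this length 93.4% held at least 1 match, and the median was 3. The Eng matches began 240, 51 and 5 bases before the start. The longer ETS motif CCGGAAG, the forkhead motif TGTTTAC, the GATA motif AGATAA, the nuclear receptor half-site AGGTCA and the TATA box TATAAA had 0 matches in both windows, and between 3.09% and 13.8% of all promoters held each of these. The GC box GGGCGG had 1 match in Cldn5 and 0 in Eng, against 32.9% of promoters with a match, and the SOX motif ACAAAG had 1 match in Eng and 0 in Cldn5, against 16.5%. A match is a description of letters and not a bound site. The windows were 59.6% and 62.4% G and C, against a median of 52% over all promoters.

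Jcad had the widest difference of the 5 genes. Its FPKM was 37.4 (36.2 to 38.8) in CD93-positive and 5.45 (4.97 to 5.97) in CD93-negative ILC3s, from 3206 and 470 reads, a ratio of 6.87 (6.23 to 7.58). Ranked by the difference of log2(FPKM + 1), which was 2.57, it stood at place 7 of 10117 measured genes from the highest, with Cldn5 at place 25 and Eng at place 91. In CD93-positive ILC3s it was the second most abundant of the 5 per kilobase, at 25.4% of their summed FPKM, against 7.29% in CD93-negative ILC3s. Jcad (ENSMUSG00000033960.6) lies at chromosome 18, 4634878 to 4682869, on the plus strand.

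Pecam1 was the most abundant of the 5 in every library. It had an FPKM of 74.4 (72.5 to 76.4) in CD93-positive and 59.4 (57.7 to 61.2) in CD93-negative ILC3s, from 5429 and 4364 reads, and lay above 95.7% and 94.7% of all rows. The ratio of 1.25 (1.20 to 1.30) was below the 2-fold limit. Scaling both libraries to a common sum lowered the difference of log2(FPKM + 1) from 0.32 to 0.15. Pecam1 (ENSMUSG00000020717.19) lies at chromosome 11, 106654217 to 106750628, on the minus strand. Genes of proteins that bind or signal from PECAM-1 were within 2-fold in 5 of 5 cases, as most genes were. Over all measured genes 2.49% passed the limit upwards and 1.94% downwards, so this count does not set the 5 apart. The phosphatase genes Ptpn11 (SHP-2) and Ptpn6 (SHP-1) had 21 and 18.8 and 11.4 and 12.0, and the integrin genes Itgb3 and Itgav had 270 and 243 and 80.1 and 79.0. The median difference of these 5 genes was 0.15, against 0.04 over all measured genes.

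Cdh5 went the other way. Its FPKM was 0.569 (0.378 to 0.822) in CD93-positive and 1.67 (1.33 to 2.08) in CD93-negative ILC3s, from 28 and 83 reads. CD93-positive ILC3s had 2.94-fold less (1.90 to 4.70), but the difference of log2(FPKM + 1) was only -0.77, since 1 is added to values of this size. A second rule, added after the data had been seen, took the plain ratio of FPKM in the 10302 genes that had 50 or more reads summed over both libraries. By it Cdh5 was past 2-fold on the low side and Cldn5, Jcad and Eng on the high side, as were 4.48% and 4.02% of those genes. Cdh5 (ENSMUSG00000031871.9) lies at chromosome 8, 104101625 to 104144511, on the plus strand. An annotated antisense gene overlaps its span but shares 0 exon bases with it. Of 3 measured classical cadherin genes, Cdh1 (E-cadherin, of epithelium) was also lower in CD93-positive ILC3s, with 1.57 and 3.78, and Cdh17 (LI-cadherin, of intestinal epithelium) was higher, with 7.54 and 2.39.

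**Figure D1:**
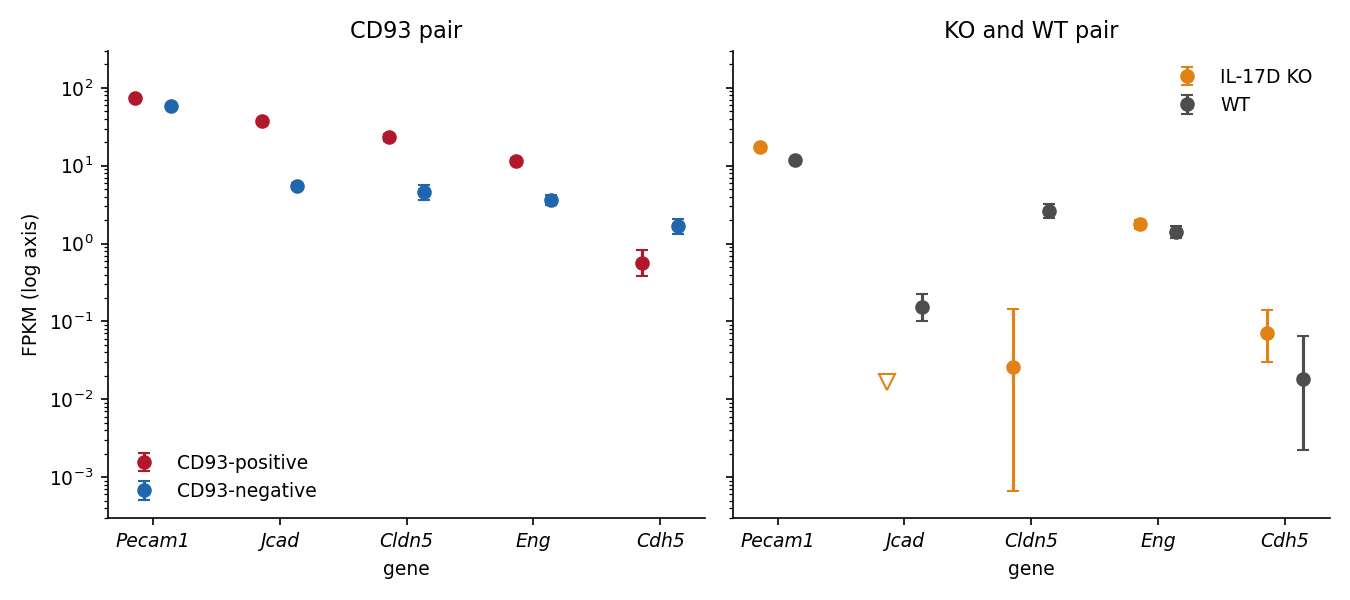
FPKM (log axis) of the 5 genes in the CD93 pair (left) and the KO and WT pair (right). Points are single libraries, bars are 95% counting intervals from recovered reads, and the open triangle marks Jcad in the KO library, which had 0 reads, at the level of 3 reads (0.0165). Jcad, Cldn5 and Eng are higher and Cdh5 lower in CD93-positive ILC3s, while on the right Cldn5 differs between 2.66 in WT and 0.0262 in KO; levels are not compared between panels.

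In the KO and WT pair Cldn5 and Jcad were lower in the KO library on few reads, Pecam1 and Eng were within 2-fold, and Cdh5 had too few reads to give a direction. Of the 5 genes 3 were measured, and 0 of these passed the limit upwards in the KO library and 1 downwards. Over all 12376 measured genes 16.6% passed it upwards and 12.7% downwards, and 1 gene of 3 is not read as a result about the 5. Jcad and Cdh5 had an FPKM below 1 in both libraries and did not pass the filter.

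Cldn5 had an FPKM of 0.0262 (0.000663 to 0.146) in KO and 2.66 (2.16 to 3.24) in WT ILC3s. The KO value is 1 read and the WT value 98 reads, at a gene length of 1414 bases, which made both whole, in place of the annotated 1416. The KO library had 101-fold less, with an interval from 17.8 to 4047 that shows how little 1 read fixes the size. With a pseudocount of 5 the difference of log2(FPKM + 1) changed from -1.83 to -0.61, under the limit. By the plain ratio rule, under which 22.6% of 9255 genes were higher and 18.9% lower in KO, Cldn5 was lower and Pecam1 and Eng were within 2-fold. Reads of low genes were split unevenly in this pair. Of 1748 genes with 50 to 200 reads over the pair, 815 (46.6%) had at most 1 read in 1 of the libraries, as Cldn5 did, against 10 of 1853 (0.54%) in the CD93 pair. The part of this unevenness in the Cldn5 value was not tested.

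Jcad had 0 reads in KO and 27 in WT ILC3s, an FPKM of 0 and 0.154 (0.101 to 0.224). Its reads were whole at a gene length of 6730 bases, against 7311 in the annotation used. Jcad was lower in KO by at least 7.07-fold, the low end of the counting interval of its ratio. Of 898 genes with 10 to 50 reads over the pair, 619 (68.9%) had at most 1 read in 1 of the libraries, as Jcad did. The part of this unevenness in the Jcad value was not tested. Cdh5 had 8 reads in KO and 2 in WT, an FPKM of 0.0705 and 0.0182, and the interval of its ratio of 3.86 ran from 0.771 to 37.4. At this depth the data do not show a direction for Cdh5.

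Eng had an FPKM of 1.76 (1.52 to 2.02) in KO and 1.41 (1.19 to 1.66) in WT, from 192 and 149 reads, and the intervals overlap. The ratio was 1.24 (1.00 to 1.55). Pecam1 was again the most abundant of the 5, with 17.4 (16.8 to 18.0) in KO and 11.9 (11.4 to 12.5) in WT, from 2922 and 1939 reads. The ratio of 1.46 (1.37 to 1.54) was beyond counting error but below 2-fold. At the depth of Pecam1 the pair was more even, with at most 1 read in 1 library in 18 of 4170 genes (0.432%) that had at least 1000 reads. Pecam1 made up 90.4% of the summed FPKM of the 5 genes in KO and 73.8% in WT. In the CD93 table, which is not compared with this one, it made up 50.5% with CD93 and 79.5% without it.

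**Figure D2:**
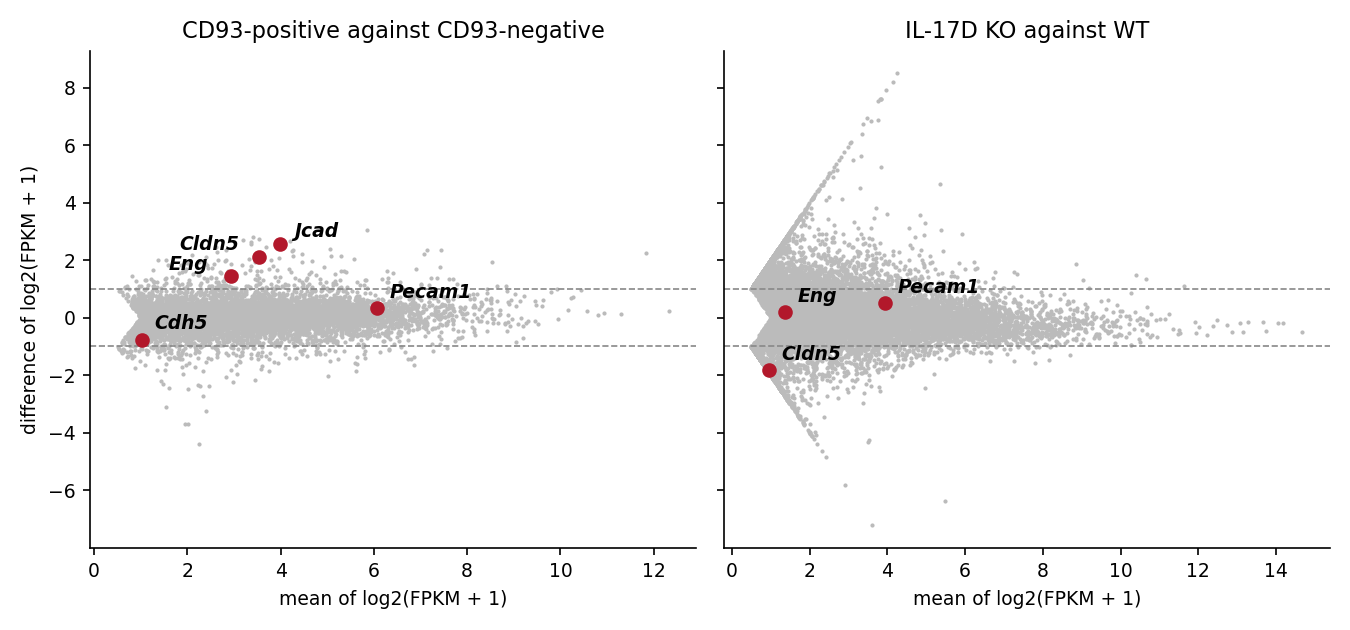
Difference of log2(FPKM + 1) between the libraries of a pair against their mean, for all measured genes (grey; 10117 on the left, 12376 on the right). Red points are the 5 genes where measured and dashed lines mark 2-fold. On the left Jcad, Cldn5 and Eng stand above the upper line (2.57, 2.12 and 1.44), and on the right Cldn5 lies among the many low genes on the lower edge (-1.83).

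The other genes of endothelial junctions were within 2-fold where measured in the CD93 pair, as most genes were. Of 31 further genes on the junction list 29 were analysed and 15 measured, and 0 of these 15 passed the limit either way, beside 2.49% of all measured genes upwards and 1.94% downwards, so the count of 0 does not set this list apart. Their median difference was -0.05, against 0.04 over all measured genes. By the plain ratio rule 0 of 19 were higher and 2 were lower, beside 4.02% and 4.48% of all genes under that rule. Ctnnb1 and Ctnna1, the beta- and alpha-catenins that tie cadherins to actin, had an FPKM of 64.5 and 62.9 and of 22.7 and 24.3. Icam2, an adhesion gene of endothelium and lymphocytes, had 21.7 and 21. Tight junction genes of epithelium and endothelium were low, with F11r (JAM-A) at 1.06 and 1.69, Tjp1 (ZO-1) at 0.536 and 0.901 and Ocln (occludin) at 0.101 and 0.623. Marveld2 (tricellulin) had 2.68 and 4.99. Mcam (CD146), an adhesion gene of endothelium and pericytes, had 0.688 and 1.95, in the direction of Cdh5. Esam, an endothelial adhesion gene, had 0.417 and 0.858.

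General endothelial genes were near 0 in both CD93 libraries. Of 42 endothelial identity genes 29 were analysed, 24 of these had an FPKM below 1 in both libraries, and 0 were at 0. The genes Kdr, Flt1, Tek, Tie1, Vwf, Robo4, Nos3 and Erg, singled out after their values had been seen, define endothelium as VEGF and angiopoietin receptors, von Willebrand factor, guidance receptor, nitric oxide synthase and ETS factor. All 8 had an FPKM of at most 0.306, and together they summed to 0.875 with CD93 and 1.44 without it. Kdr had 13 and 19 reads and Vwf 19 and 24. Across the 29 genes 6 had a higher and 23 a lower FPKM in CD93-positive ILC3s, while 48.8% of all rows were lower. That share covers rows of every level and was not matched to genes this low, so nothing is read from the 23. The sum of the list was nevertheless higher there, 53.2 against 24.3, and 2 genes carried that sum. Stab1 and Stab2, scavenger receptor genes of sinusoidal endothelium that macrophages also use, had 42.4 and 10.3 (ratio 4.13, 3.88 to 4.39) and 4.66 and 0.581 (ratio 8.02, 6.12 to 10.7). Without them the sum was 6.12 against 13.4. Selp (P-selectin, 0.213 and 1.40) and the Notch target gene Hey1 (0.601 and 2.03) were among the lower ones.

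The receptor partners of endoglin were low or close between the CD93 libraries. Of 12 measured genes of the endoglin and BMP receptor list, only Eng itself passed the limit upwards, and only Id3 passed it downwards, a target gene of BMP signalling (0.715 and 2.89). These counts stand beside 2.49% and 1.94% of all genes and include Eng, which was chosen on this pair. The median of the 12 was -0.26, against 0.04 over all measured genes. Acvrl1, which encodes ALK1, the receptor that endoglin serves, was low in both, with 0.320 (16 reads) and 0.219 (11 reads), and its ratio of 1.46 (0.638 to 3.49) gives no direction. The TGF-beta receptor genes Tgfbr2 (25.9 and 32.5) and Tgfbr1 (6.31 and 7.40), the BMP receptor gene Bmpr2 (1.87 and 2.21) and the signal transducer gene Smad5 (6.87 and 8.31) were slightly lower in CD93-positive ILC3s. The BMP target gene Id1 had 0.368 and 1.61. Id2, a gene that all innate lymphoid cells need, had 465 and 287. In the KO and WT pair 1 of 13 measured genes of this list was higher, Bmpr1a, with 324 reads in KO and 1 in WT. The 2 lower ones were Smad7 (2.42 and 6.30) and Id1 (0 and 1.69), beside 16.6% higher and 12.7% lower over all genes. Of genes with 200 to 1000 reads over this pair, 8.63% had at most 1 read in 1 library, as Bmpr1a did.

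Among 4 measured ligands that act on vessels, 2 passed the limit upwards, beside 2.49% of all genes. Vegfa, the main growth factor of endothelium, had an FPKM of 719 and 188 (ratio 3.84, 3.75 to 3.92), and Pdgfb, which recruits pericytes, had 18.1 and 5.75 (3.14, 2.74 to 3.60). The Notch ligand gene Jag1 had 6.64 and 13.2. Thbd, a thrombomodulin gene related to Cd93, had 5.37 and 4.72.

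**Figure D3:**
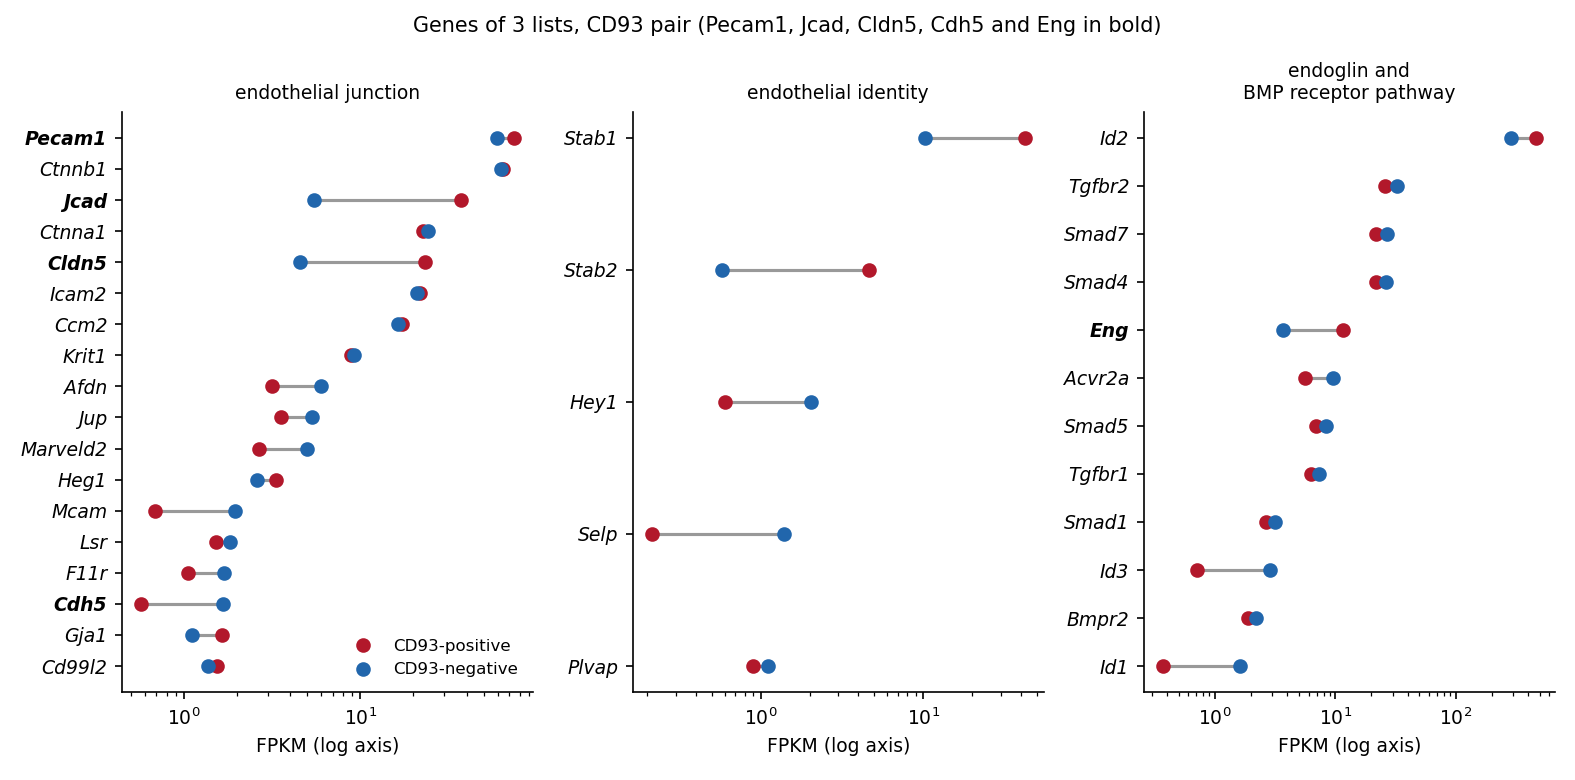
FPKM (log axis) of measured genes, as far as reported here, of the endothelial junction, endothelial identity and endoglin and BMP receptor lists in CD93-positive (red) and CD93-negative (blue) ILC3s, 1 library each, with the 5 genes in bold. Jcad, Cldn5, Eng, Stab1 and Stab2 have red points far to the right of blue (ratios of 3.19 to 8.02), and Cdh5, Mcam, Hey1, Selp, Id1 and Id3 have them to the left.

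In the KO and WT pair the same lists held genes past the limit both ways, beside 16.6% higher and 12.7% lower over all genes. Of the 31 further junction genes 13 were analysed and 10 measured, with 2 higher in KO past the limit and 3 lower, and a median of -0.23 against 0.01 over all genes. F11r was at least 54-fold higher in KO by its counting interval, with 208 reads against 0. Heg1, a receptor of endothelial junctions, had an FPKM of 5.36 and 0.919. Ctnnb1 had 4.44 and 19.3, Gja1 (connexin 43) had 4 and 321 reads, and Marveld2 had 0.580 and 2.47. Of 42 identity genes 13 were analysed and 10 measured, with 5 higher, 1 lower and a median of 1.12, against 0.01 over all genes. The sum of the identity list was 46.7 in KO and 17.9 in WT. Hey1 had 22.2 and 5.29, Sele (E-selectin) 6.94 and 2.25, and Plvap, Madcam1 and Adgrl4 had 144, 120 and 178 reads in KO and 0 in WT. Sox7 had 0 and 108 reads. Such splits were common in this pair. At most 1 read in 1 library was found in 46.6% of genes with 50 to 200 reads and in 8.63% with 200 to 1000. The part of this unevenness in the values of F11r, Plvap, Madcam1, Adgrl4 and Sox7 was not tested. Flt4, the VEGF-C receptor gene of lymphatic vessels, had 5.76 and 2.5. None of the 8 defining genes named above was analysed in this pair. Stab1 and Stab2 were lower in KO, with 0 and 113 reads and an FPKM of 1.03 and 2.98.

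Markers of other cells differed between the CD93 libraries as well. In bulk samples fewer cells of a type and less RNA per cell cannot be told apart. Of 17 macrophage, monocyte and dendritic cell genes, which include cells that make Eng, Pecam1 and Stab1, 14 were analysed and 8 measured. Of these 1 passed the limit upwards, Fcgr1 (2.57 and 0.655), and 0 downwards, beside 2.49% and 1.94% of all measured genes. Their median difference was 0.51, against 0.04 over all measured genes. The sum of the list was 57.5 with CD93 and 46.1 without it. The highest of the list were Cd68 (17.7 and 15.1) and Cd14 (10.4 and 5.53), both higher with CD93, and Xcr1 (10.3 and 14.9), which was lower. The macrophage genes Csf1r (0.577 and 0.264), Adgre1 (0.580 and 0.498) and Mrc1 (0.255 and 0.106) were below 1, C1qa had 5.83 and 2.45, and 0 of the 14 were at 0. Of 10 platelet genes, which mark another source of Pecam1, 4 were analysed, with a sum of 7.39 and 4.67. Pf4 had 43 and 14 reads and Itga2b 32 and 111. Of 10 pericyte and smooth muscle genes 5 were analysed, with a sum of 13 and 6.44, of which Pdgfrb made up 10.8 and 3.65. Of 10 fibroblast genes 7 were analysed, with a sum of 30.8 and 13.4, of which Gsn made up 19.1 and 8.89 and Lum 11.3 and 3.95. The collagen genes Col1a1, Col1a2 and Col3a1 and Pdgfra, which define fibroblasts, were at or below 0.142 in both libraries, and Rgs5 of pericytes was at 0.0939 and 0.112. Of 15 epithelial genes 9 were analysed, with a sum of 26.2 and 46.7. In CD93-positive ILC3s 9 of the 9 were lower, beside 48.8% of all rows, and 3 of them were below 1 in both libraries. T cell genes summed to 2.74 and 9.94 over 5 genes. The part of macrophages, platelets, pericytes, fibroblasts and epithelium in the values of Jcad, Cldn5, Eng, Pecam1 and Cdh5 was not tested.

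In the KO and WT pair the epithelial sum was 1068 and 293 over 8 genes and that of macrophages, monocytes and dendritic cells 67.4 and 17.6 over 7 genes. Fibroblast genes summed to 0.287 in KO and 8.57 in WT over 7 genes, and Lum and Dpt were at 0 in KO. T cell genes summed to 1281 and 888 over 10 genes. Their part in the values of the 5 genes was not tested.

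**Figure D4:**
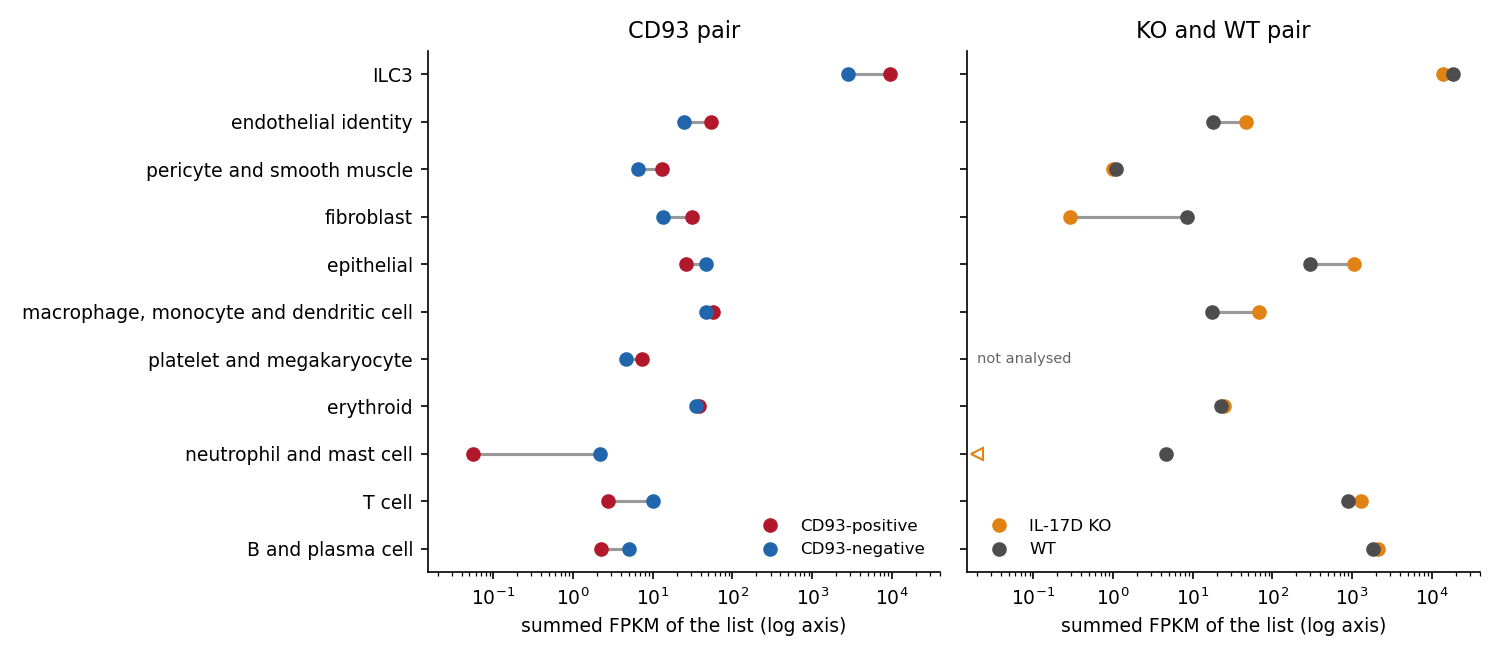
Summed FPKM (log axis) of the marker genes of each cell type, as far as analysed, in the libraries of the CD93 pair (left) and the KO and WT pair (right). Each point is 1 library, and the open triangle marks a sum of 0. Endothelial identity genes sum to 53.2 and 24.3 on the left, of which Stab1 is 42.4 and 10.3, beside 9522 and 2790 for ILC3 genes.

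The genes whose levels were nearest to each of the 5 were found by the Euclidean distance of log2(FPKM + 1) over the 4 libraries, with each gene set beside the other within its own table, among 9376 genes. Nearest to Jcad was Lrp1, with an FPKM of 41.3 and 7.56 in CD93-positive and CD93-negative and of 0.0523 and 0.348 in KO and WT ILC3s (distance 0.491), and then Idi2 (0.733). Nearest to Cldn5 were Hoxa5, with 17.7 and 6.15 and with 0 and 4.37 (0.760), and Lrrc25 (0.894). Nearest to Eng were Pdgfa, with 10.3 and 2.75 and with 2.13 and 0.995 (0.477), and Vav2 (0.616). Pecam1 lay nearest to Arpc1b (0.372) and Pdcd6ip (0.402), and Cdh5 to Spdl1 (0.126) and Epha2 (0.206). None of the 5 was among the nearest 2 genes of another.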

How the data were processed

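RNA-seq of 4 mouse libraries, 1 per group, was used as FPKM computed and deposited by the authors; each library's own table held the same values as its joint table. The submitters' processing notes name mm10, Bowtie2, Subread with featureCounts, edgeR and DESeq2; their versions, order, annotation and filters are not stated.

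Whole reads were recovered as FPKM times union exon length (GENCODE M21) times a scaling total found per library, within 0.02 reads, for 98.1% and 98.2% of values in the CD93 pair and 92.1% and 91.9% in the KO and WT pair. These are shares of the values above 0 in rows with an annotated length (12399 of 12546 and 11071 of 15242 rows), and 12159 and 10153 genes had whole reads in both libraries. They summed to 11406363 (CD93-positive), 10740639 (CD93-negative), 20855681 (KO) and 21611250 (WT). Ratios have 95% exact (Clopper-Pearson) and levels exact Poisson intervals. These cover counting error only, since no molecular identifiers are described for the reads. A library with 0 reads is drawn at the level of 3 reads, and its fold difference is the low end of the ratio interval. Recovery was tested on simulated data made with the same gene lengths. This cannot test a wrong length or the other lengths used for Cldn5 and Jcad in the KO and WT pair.

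Genes that reached an FPKM of 1 in at least 1 library of a pair were called measured, and differences are of log2(FPKM + 1), which understates low genes. No test was possible with 1 library per group. The 5 genes and the 18 lists were chosen with earlier results of these data known. Genes were named as members of these lists, those at least 2-fold apart or with the highest level first, or as the 2 nearest genes of each of the 5. Genes below an FPKM of 1 in both libraries, such as Kdr, Acvrl1, Tjp1, Csf1r and Col1a1, were named after their values were seen. Python 3.11.15, pandas 2.3.3 and scipy 1.17.1 were used. Alternatives were pseudocounts of 0.1 and 5, no filter, a minimum FPKM of 5, a 3-fold limit, 2 scalings and the ratio rule. Some genes counted in the lists are not reported here by name.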

Additional observations from a re-analysis of the deposited data

How the results depend on the processing

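Under the 8 alternatives 0 of the 5 genes changed direction in either pair where it was measured. In the CD93 pair the difference of Jcad ranged from 2.02 to 2.78, of Cldn5 from 1.56 to 2.35, of Eng from 0.94 to 1.67, of Pecam1 from 0.15 to 0.32 and of Cdh5 from -1.56 to -0.26. The number of the 5 genes that were higher changed from 3 to 2, without Eng, with a pseudocount of 5 and with the 3-fold limit. The number that were lower changed from 0 to 1 with a pseudocount of 0.1 and with the ratio rule. Of the other genes of the 2 endothelial lists, 2 were higher and 0 lower. Higher ones numbered 1 with a pseudocount of 5 or an FPKM of at least 5, and lower ones 3 with a pseudocount of 0.1, 2 with a common sum, 1 with a median ratio of 1 and 6 with the ratio rule. Over all genes, 252 higher and 196 lower changed to 391 and 392 (pseudocount 0.1), 109 and 60 (pseudocount 5), 73 and 37 (3-fold limit) and 414 and 462 (ratio rule), with 127 lower for an FPKM of at least 5 and 296 for a common sum. That sum moved the median of all genes from 0.04 to -0.12 and the higher share of the genes past the limit from 56.2% to 36.9%.

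In the KO and WT pair 1 of the 5 was lower, Cldn5, and 0 with a pseudocount of 5 or an FPKM of at least 5, which it does not reach. Of the list genes, 7 higher and 4 lower changed to 1 and 1 (pseudocount 5), 3 and 1 (FPKM of at least 5) and 1 lower (3-fold limit). Over all genes, 2058 and 1569 changed to 499 and 322, 908 and 611, and 920 and 636 in the same order. A common sum moved the median from 0.01 to 0.17. The cause of these changes was not tested beyond the fewer genes that a filter leaves. No paired analysis was possible because each group has 1 library. Few reads limit Cdh5, Jcad and Cldn5 in this pair, at 10, 27 and 99 over both libraries, and reads of low genes were split unevenly in it.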
